A study of Mus musculus with 24 samples.

Results

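The genes described here encode proteins of the red cell membrane and of the protein skeleton beneath it, and they were chosen by symbol: Slc4a1, Aqp1, Kel, Rhd, Ank1, Epb42 and Dmtn. All probes annotated to these symbols were taken, which gave 7 genes and 12 probes among the 19057 named genes and 45281 probes of the array. Their messenger RNA was read on 24 Illumina WG-6 v2 arrays in 1 colour, 3 for each of 8 groups, with RNA from primary bone marrow of D2 mice (labelled DBA2) and B6 mice (labelled C57Bl/6). The cell types were Ter119+ erythroid cells, Gr1+ myeloid cells, committed progenitors (L-S-K+, that is c-Kit-positive cells without lineage markers or Sca-1) and multilineage LSK cells, which carry both c-Kit and Sca-1 and lack lineage markers. Both strains are given with no transgene and no treatment, the labels give no age, and the fractions were isolated by surface antigen, so each holds the cells that carry that antigen and not a single stage. No label ties the 3 arrays of a group to separate mice, and every error and p-value below therefore measures the spread between arrays. In the main tests this spread is estimated once per probe, over all 8 groups together, and not from the compared groups alone.

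The red cell membrane is held to a mesh of spectrin and short actin filaments by linker proteins that grip transmembrane proteins. Band 3, the product of Slc4a1, is the most abundant of those transmembrane proteins, and it exchanges chloride for bicarbonate. Ankyrin and protein 4.2 tie band 3 to spectrin, other proteins sit where spectrin meets actin, and inherited loss of several of these components makes red cells fragile and round. As erythroid precursors mature the membrane and its skeleton are assembled while the cells fill with haemoglobin, and the Ter119 antigen used for the sort lies at that membrane.

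In the GRCm38.p6 annotation of RefSeq, the transporters lie at chr11:102348820-102365281 (Slc4a1) and chr6:55336299-55348555 (Aqp1). The blood group genes lie at chr6:41686329-41704334 (Kel) and chr4:134864536-134896172 (Rhd). The skeleton genes lie at chr8:22974836-23150501 (Ank1), chr2:121017891-121036877 (Epb42) and chr14:70602184-70636048 (Dmtn). The positions of the probes within their genes were not used here. Promoter windows, from 250 bases before an annotated start to 50 bases after it, were found in the RefSeq table for 4 of the 7 genes: Aqp1, Kel, Rhd and Epb42. The windows of Kel and Aqp1 are shown because these genes had the closest profiles of any pair among the detected genes of the 7, as described below. Erythroid genes are also known to be regulated by GATA1 and KLF1. Capitals mark the GATA motif (AGATAA or AGATAG or TGATAA or TGATAG) and the KLF motif (CCNCNCCC), searched on both strands, and no 2 of the marked matches overlap. The Kel window is chr6:41704276-41704575 on the minus strand and the Aqp1 window is chr6:55336049-55336348 on the plus strand, both printed 5′ to 3′ along the gene.
Kel: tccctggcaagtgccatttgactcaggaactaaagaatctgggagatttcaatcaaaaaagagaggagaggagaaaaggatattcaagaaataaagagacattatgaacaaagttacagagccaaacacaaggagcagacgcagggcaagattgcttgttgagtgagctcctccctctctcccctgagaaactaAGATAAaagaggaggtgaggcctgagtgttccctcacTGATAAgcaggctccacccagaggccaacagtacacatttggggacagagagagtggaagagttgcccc
Aqp1: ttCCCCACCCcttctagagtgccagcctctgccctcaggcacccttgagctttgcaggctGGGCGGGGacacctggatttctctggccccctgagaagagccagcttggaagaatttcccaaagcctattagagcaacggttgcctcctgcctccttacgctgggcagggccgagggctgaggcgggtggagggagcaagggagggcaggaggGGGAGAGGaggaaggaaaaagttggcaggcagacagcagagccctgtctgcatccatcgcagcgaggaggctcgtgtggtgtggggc
Positions are counted from the start site on which each window is set, which for Kel lies inside the outer end of the gene given above and not at it. Kel held 2 GATA motifs, which began at positions -56 and -19, and no KLF motif. Aqp1 held 3 KLF motifs, which began at positions -248, -190 and -37, and no GATA motif. Rhd held 1 of each kind and Epb42 held 1 GATA motif, and its window was the only one of the 4 with the TATA motif TATAAA. Of the 32851 windows in the table, 29.8% held the GATA motif, 49.5% the KLF motif and 13.6% the TATA motif, so matches of these kinds are common.

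Between 12.6% and 27.4% of the probes of an array were detected (detection p under 0.01), the fewest on D2 LSK replicate 2, and arrays of the same group correlated at 0.92 to 0.99. By group, the lowest mean correlations of an array with its own group were 0.922 for D2 LSK replicate 2, 0.948 for B6 Ter119+ replicate 2 and 0.962 for D2 progenitor replicate 1, and the other D2 LSK arrays stood at 0.953 and 0.955. All 7 measured erythroid marker genes were detected on every Ter119+ array, with summed normalized intensities of 39251 to 39931 on D2 and 31981 to 35246 on B6 arrays. The mean log2 level of the list, which is less weighted to its strongest probe, was 10.10 to 10.82 on D2 and 10.27 to 10.88 on B6 arrays. The sorted Ter119+ cells also carried RNA of other lineages. Of the granulocyte list all 6 measured genes were detected on every Ter119+ array, at summed intensities of 45793 to 52151 in D2 and 30753 to 47614 in B6, against 98354 to 107809 on the D2 and 105628 to 107314 on the B6 Gr1+ arrays. All 4 measured B cell genes (summed 4847 to 6556 in D2, 4024 to 4877 in B6) and all 3 measured mast cell and basophil genes (2225 to 4642 in D2, 2184 to 3316 in B6) were detected on every Ter119+ array too. The other fractions were not free of such RNA. All 6 granulocyte genes were also detected on every progenitor array, at summed intensities of 10594 to 35581 in D2 and 6955 to 8283 in B6. The same held for LSK arrays, at 12489 to 30997 in D2 and 11606 to 14825 in B6. What these other cells contribute to the levels below was not tested. In sorted bulk RNA, fewer cells of a type and less RNA per cell cannot be told apart.

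Of the 12 probes, 8 were detected on all 3 arrays of at least 1 group and entered the test: 1 for Slc4a1, 3 for Aqp1, 1 each for Kel and Ank1, and 2 for Dmtn. Levels are background-corrected, quantile-normalized log2 intensities, on which an undetected probe mostly reads about 4 to 5. The lowest detected level differed between arrays, from 4.59 on B6 Ter119+ replicate 3 to 6.36 on D2 LSK replicate 2. A probe's level is set only against its own in other samples. Differences are given on the log2 scale with their SE, and a probe was called at a Benjamini-Hochberg adjusted p under 0.05 in limma over all 12668 probes tested. A probe detected on no array of a group has only a bound there. Its fold is given as "at least", with the arrays of that group of strain and cell type raised to their lowest detected level. Undetected arrays of a group with some arrays detected kept their own readings. Where such a group enters, "at least" is approximate and may stand too high. In Ter119+ cells against progenitors 7 of the 8 probes, covering all 5 genes, were called higher, beside 24.4% of all probes tested. All 8 were called higher in Ter119+ than in LSK cells (26.2% of all probes) and than in Gr1+ cells (30.8%). Only Slc4a1 and the lead Aqp1 probe were detected on all arrays of a Gr1+ group, and these and Aqp1 ILMN_2980661 on all of an LSK group. The rest entered the test through progenitors or Ter119+ cells, Dmtn ILMN_2860699 through Ter119+ cells alone. For these the filter largely fixed the direction, while the shares of all probes include probes kept through any group. The median difference over the 8 probes was 2.71 between Ter119+ cells and progenitors, 5.77 against LSK cells and 6.10 against Gr1+ cells, while that of all probes tested lay between -0.08 and 0.09.

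**Figure D1:**
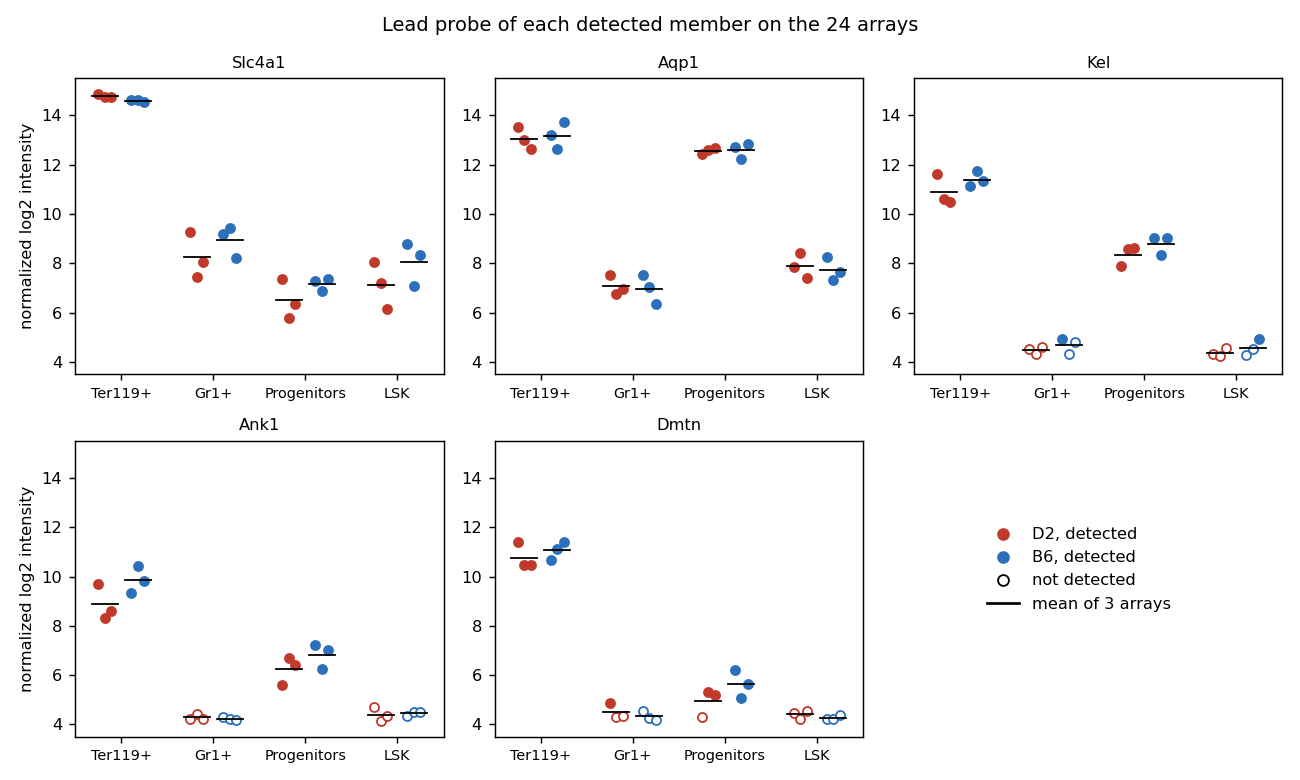
Normalized log2 intensity (vertical axis) of the lead probe, the one with the highest mean, of each of the 5 detected genes on every array, by cell type (horizontal axis) and strain. Filled circles are detected, open circles are not, and bars are means of 3 arrays. All Ter119+ arrays of Slc4a1, Kel, Ank1 and Dmtn lie above every array of the other cell types, while for Aqp1 the Ter119+ and progenitor arrays overlap.

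Slc4a1 encodes band 3, the anion exchanger of the red cell. Its single probe read 14.85, 14.75 and 14.75 on the D2 Ter119+ arrays and 14.62, 14.62 and 14.53 on the B6 Ter119+ arrays. In Gr1+ cells it read 9.26, 7.46 and 8.05 in D2 and 9.17, 9.43 and 8.20 in B6. The Ter119+ arrays were far above all others and close to each other, and on them the probe ranked between 2 and 5 of all probes by intensity, near the top of the scale. In progenitors the values were 7.38, 5.76 and 6.33 in D2 and 7.27, 6.88 and 7.35 in B6. LSK cells gave 8.03, 7.19 and 6.14 in D2 and 8.77, 7.08 and 8.35 in B6. Like the lead Aqp1 probe it was detected on all 24 arrays, and its values outside Ter119+ cells were spread widely within groups. Slc4a1 was 232-fold higher in Ter119+ cells than in progenitors, a difference of 7.86 ± 0.34 (adjusted p = 1.17e-14, limma). The differences were 7.09 ± 0.34 against LSK cells (136-fold) and 6.09 ± 0.34 against Gr1+ cells (68.2-fold). Between progenitors and LSK cells the groups overlapped and no change was called (-0.77 ± 0.34, adjusted p = 0.0811, limma).

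Slc4a1 was the only one of the 8 probes called higher in Gr1+ cells than in progenitors, by 1.77 ± 0.34 or 3.40-fold (adjusted p = 8.97e-05, limma), with no overlap between the 6 Gr1+ and the 6 progenitor arrays. The difference was 1.77 ± 0.48 in D2 and 1.77 ± 0.48 in B6 (adjusted p = 0.00355 and 0.00358). Of all probes 29.1% were called higher there, 24.9% within D2 and 24% within B6. The difference between Gr1+ and LSK cells was 1.14 ± 0.48 in D2 (adjusted p = 0.0530) and 0.86 ± 0.48 in B6 (adjusted p = 0.145), neither past the threshold. Erythroid marker genes split between Gr1+ cells and progenitors. Hba-a1, an alpha globin gene, was higher in Gr1+ cells by 1.34 ± 0.28 (adjusted p = 0.000244) and Alas2, the erythroid enzyme that begins haem synthesis, by 1.08 ± 0.22 (adjusted p = 0.000128). The other 5 measured markers were lower in Gr1+ cells: the transcription factors Klf1 (-4.52 ± 0.23) and Gata1 (at least 2.25-fold, detected on no Gr1+ array), the transferrin receptor gene Tfrc (-2.47 ± 0.15), the erythropoietin receptor gene Epor (-1.81 ± 0.26) and the carbonic anhydrase gene Car2 (at least 31.2-fold, detected on 1 of 6 Gr1+ arrays). Per array 3 to 6 of the 7 measured erythroid markers were detected in Gr1+ cells and 6 to 7 in progenitors. Their summed intensity was 1917 to 4708 in D2 and 2630 to 3888 in B6 Gr1+ cells, against 3133 to 4758 in D2 and 3470 to 4123 in B6 progenitors. That sum is weighted to Hba-a1, the probe of highest intensity. The mean log2 level of the list was 6.07 to 6.33 in D2 and 5.98 to 6.32 in B6 Gr1+ cells. In progenitors it was higher, at 7.92 to 8.25 in D2 and 7.95 to 8.27 in B6. Within these groups the array with the highest Slc4a1 was mostly, but not always, the one with the highest Hba-a1. D2 replicate 1 had the highest Slc4a1 and the highest Hba-a1 of the D2 arrays both in Gr1+ cells (9.26 and 12.10) and in progenitors (7.38 and 11.20). In B6 Gr1+ cells replicate 2 was highest for both (9.43 and 11.80). Among B6 progenitors Slc4a1 varied little (SD 0.25). There replicate 3 had the highest Slc4a1 (7.35) with the lowest Hba-a1 (10.03), and replicate 2 the lowest Slc4a1 (6.88) with the highest Hba-a1 (10.39). The part of red cell RNA from other cells in the Slc4a1 level of Gr1+ cells was not tested.

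**Figure D2:**
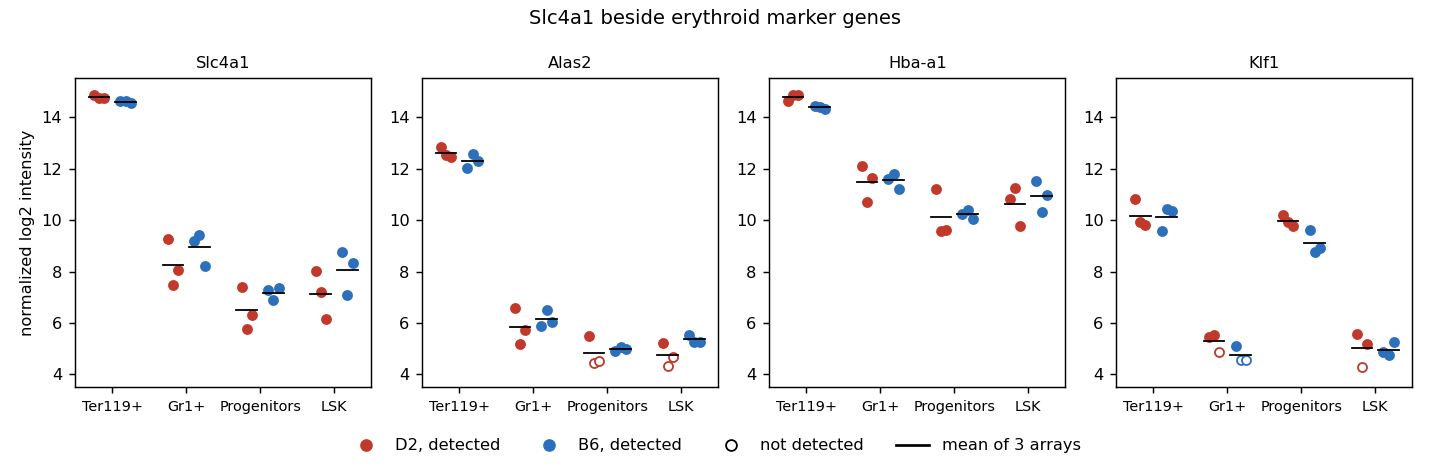
Normalized log2 intensity (vertical axis) of Slc4a1, Alas2, Hba-a1 and Klf1 on every array by cell type and strain, with filled circles detected, open circles not detected and bars for means of 3 arrays. Slc4a1, Alas2 and Hba-a1 are higher in Gr1+ cells than in progenitors, while Klf1 is 4.52 lower.

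Aqp1 encodes aquaporin 1, the water channel that carries the Colton blood group in humans. Its lead probe (ILMN_2756486) read 13.51, 13.00 and 12.65 on the D2 Ter119+ arrays and 13.21, 12.62 and 13.72 on the B6 Ter119+ arrays. In Gr1+ cells it read 7.51, 6.76 and 6.94 in D2 and 7.54, 7.04 and 6.33 in B6. By mean these are the highest and the lowest of its levels. Progenitors gave 12.43, 12.59 and 12.69 in D2 and 12.73, 12.23 and 12.82 in B6. LSK cells gave 7.86, 8.42 and 7.42 in D2 and 8.26, 7.32 and 7.64 in B6. Progenitors therefore stood with Ter119+ cells, and LSK cells stood near Gr1+ cells. Aqp1 was 27.1-fold higher in progenitors than in LSK cells (4.76 ± 0.24, adjusted p = 3.61e-13, limma), and 47.2-fold lower in Gr1+ cells than in progenitors (-5.56 ± 0.24). Between Ter119+ cells and progenitors the lead probe differed by 0.54 ± 0.24, with overlapping arrays and no call (adjusted p = 0.0574, limma), and it passed the threshold in 13 of 37 alternative settings.

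The other 2 Aqp1 probes were also highest in Ter119+ cells and next highest in progenitors, and at both the difference between these cell types was called. ILMN_2980661 read 11.48, 10.59 and 10.33 on D2 and 11.06, 12.10 and 11.63 on B6 Ter119+ arrays, against 9.84, 10.18 and 9.84 in D2 and 9.92, 9.43 and 10.19 in B6 progenitors. ILMN_2980663 read 10.39, 9.21 and 9.16 on D2 and 9.83, 11.09 and 10.69 on B6 Ter119+ arrays, against 8.71, 8.73 and 8.79 in D2 and 8.59, 8.03 and 8.87 in B6 progenitors. Neither probe's Ter119+ arrays overlapped its progenitor arrays. The Ter119+ level was higher by 1.29 ± 0.21 at ILMN_2980661 (2.45-fold, adjusted p = 1.87e-05) and by 1.44 ± 0.21 at ILMN_2980663 (2.71-fold, adjusted p = 5.5e-06). Outside progenitors and Ter119+ cells ILMN_2980661 was detected on 5 of 6 LSK and 2 of 6 Gr1+ arrays, and ILMN_2980663 on 2 of 6 LSK and 1 of 6 Gr1+ arrays. Progenitors exceeded LSK cells by 4.94 ± 0.21 at ILMN_2980661 (30.7-fold) and at least 11.9-fold at ILMN_2980663. At each of the 3 probes the difference was larger between progenitors and LSK cells than between Ter119+ cells and progenitors, though the 2 differences were not tested against each other. Gr1+ and LSK cells read too near the detection limit at ILMN_2980661 and ILMN_2980663 to be put in order.

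Kel encodes the Kell blood group glycoprotein, a membrane endopeptidase that is bound to the XK protein in the human red cell. Its probe read 11.61, 10.62 and 10.49 on the D2 and 11.13, 11.74 and 11.32 on the B6 Ter119+ arrays. Progenitors gave 7.89, 8.57 and 8.60 in D2 and 9.01, 8.32 and 9.01 in B6. The 2 cell types did not overlap, and all 12 of these arrays were detected. Gr1+ cells read 4.52, 4.33 and 4.62 in D2 and 4.93, 4.32 and 4.81 in B6, and LSK cells read 4.33, 4.22 and 4.56 in D2 and 4.26, 4.53 and 4.91 in B6, with 1 of 6 arrays detected in each cell type, both from B6. Kel was 6.00-fold higher in Ter119+ cells than in progenitors (2.59 ± 0.20, adjusted p = 2.1e-10, limma) and at least 12.3-fold higher in progenitors than in LSK cells (adjusted p = 2.67e-13). Ter119+ cells exceeded LSK cells at least 74-fold and Gr1+ cells at least 77.3-fold. These bounds of Kel are approximate, as the undetected B6 LSK and B6 Gr1+ arrays kept their own readings. Kel was thus called higher both in progenitors over LSK cells and in Ter119+ cells over progenitors.

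Rhd encodes the Rh polypeptide of the mouse red cell, which in humans carries the D antigen. Its only probe was detected on no array, with a lowest detection p of 0.015 and raw intensities of 77.9 to 100.4. The highest of these came from B6 Ter119+ replicate 1, where the lowest intensity called detected was 101.5. Over all arrays that limit lay between 87.4 and 101.6. Nothing can be said from this probe about where Rhd is expressed. Rhag, the gene of the Rh-associated glycoprotein that carries Rh proteins to the membrane, had a working probe: it was 2.24 ± 0.21 higher in Ter119+ cells than in progenitors (4.72-fold, adjusted p = 4.92e-09, limma) and was detected on no LSK array.

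Ank1 encodes ankyrin 1, which links band 3 to beta-spectrin. Its detected probe (ILMN_2715601) read 9.71, 8.34 and 8.62 on the D2 and 9.32, 10.43 and 9.84 on the B6 Ter119+ arrays. Progenitors gave 5.62, 6.71 and 6.41 in D2 and 7.21, 6.27 and 7.04 in B6. Ter119+ and progenitor arrays did not overlap. It was detected on no Gr1+ array (4.21, 4.43 and 4.22 in D2; 4.29, 4.21 and 4.17 in B6) and on no LSK array (4.70, 4.15 and 4.35 in D2; 4.35, 4.52 and 4.50 in B6). Ank1 was 7.14-fold higher in Ter119+ cells than in progenitors (2.84 ± 0.23, adjusted p = 5.48e-10, limma) and at least 2.95-fold higher in progenitors than in LSK cells (adjusted p = 1.47e-07). Against LSK and Gr1+ cells the Ter119+ level was at least 21.0-fold and at least 20.6-fold higher. The second Ank1 probe (ILMN_2609011) was detected nowhere, at raw intensities of 78.7 to 92.2 and a lowest detection p of 0.0748, so the 2 probes of this gene disagree on its detection.

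Epb42 encodes protein 4.2, a catalytically inactive relative of transglutaminases that binds band 3 and ankyrin. Its only probe was detected on no array, with raw intensities of 77.9 to 88.2 and a lowest detection p of 0.152. The Ter119+ arrays read 80.1, 86.2 and 78.6 in D2 and 88.2, 81.8 and 85.3 in B6, within the scatter of undetected readings, and its expression cannot be read from this array.

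Dmtn encodes dematin, an actin-bundling protein of the junctions where spectrin meets actin. The lead probe (ILMN_1245717) read 11.39, 10.46 and 10.48 on the D2 and 10.69, 11.14 and 11.41 on the B6 Ter119+ arrays. Progenitors gave 4.30, 5.32 and 5.20 in D2 and 6.23, 5.07 and 5.66 in B6, with all but D2 replicate 1 detected. The gap between the 2 cell types was wide and free of overlap. Gr1+ cells read 4.88, 4.29 and 4.35 in D2 and 4.53, 4.27 and 4.20 in B6, with 1 array detected, and LSK cells read 4.48, 4.24 and 4.53 in D2 and 4.23, 4.22 and 4.39 in B6, with none detected. Dmtn was 49.5-fold higher in Ter119+ cells than in progenitors (5.63 ± 0.21, adjusted p = 6.72e-16, limma). It was at least 61.6-fold higher than in LSK cells and at least 73.1-fold higher than in Gr1+ cells. The bound against Gr1+ cells is approximate, as the undetected D2 Gr1+ arrays kept their own readings. A small rise was called in progenitors over LSK cells (0.95 ± 0.21, at least 1.25-fold, adjusted p = 0.000957), but the groups overlapped, and the call was lost without background correction and with the authors' processed values (adjusted p up to 0.0608).

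The second Dmtn probe (ILMN_2860699) read 9.53, 8.33 and 8.42 on the D2 and 8.74, 11.12 and 9.67 on the B6 Ter119+ arrays, against 4.45, 4.77 and 4.81 in D2 and 4.85, 4.77 and 4.87 in B6 progenitors. The progenitor readings lay near the detection limit, with 1 of 3 D2 and 2 of 3 B6 arrays detected. The probe gave a 23.5-fold higher level in Ter119+ cells (4.55 ± 0.26, adjusted p = 1.69e-12) and no call between progenitors and LSK cells (0.44 ± 0.26, adjusted p = 0.196). The third Dmtn probe (ILMN_2615749) was detected on no array, at raw intensities of 80.2 to 92.5 and a lowest detection p of 0.0374. So 2 of the 3 Dmtn probes placed most of the change between progenitors and Ter119+ cells, and the third gave no reading.

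**Figure D3:**
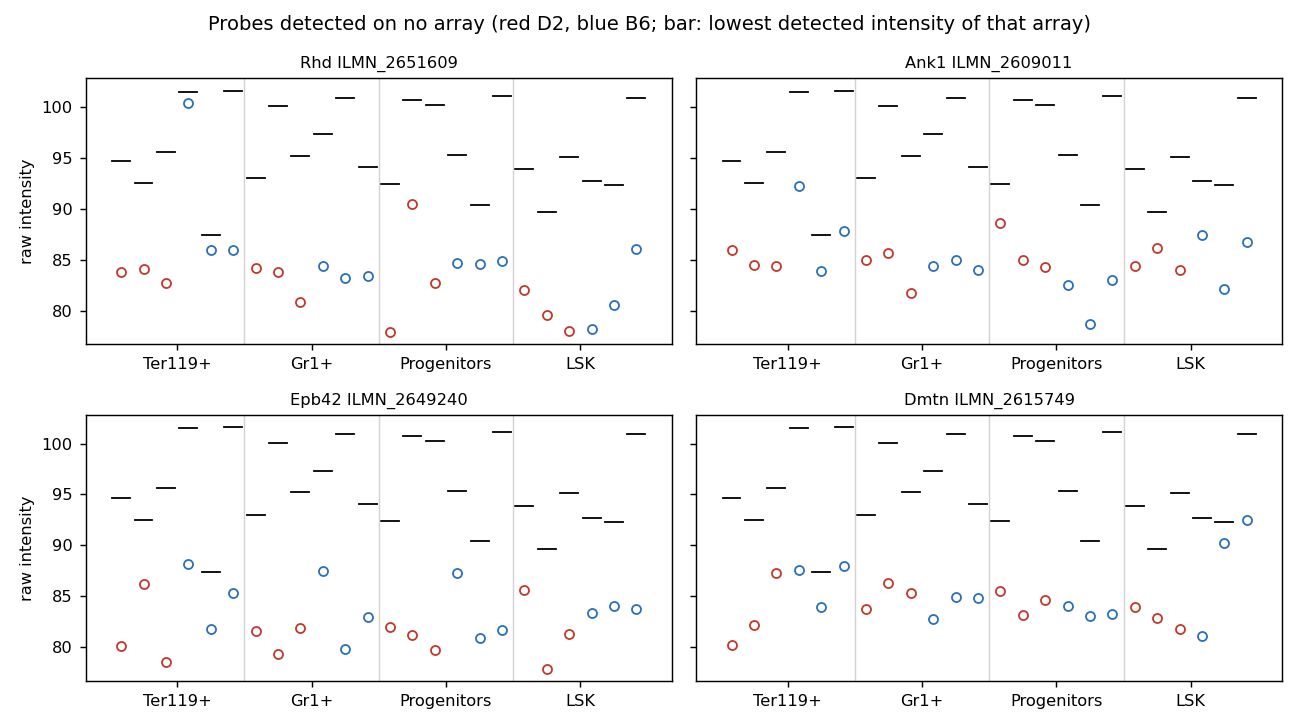
Raw intensity (vertical axis) of the 4 probes detected on no array, for each of the 24 arrays grouped by cell type, D2 in red and B6 in blue. Black bars give the lowest intensity called detected on that array, and every circle lies below its bar, the closest being Rhd on B6 Ter119+ replicate 1 at 100.4.

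In progenitors against LSK cells 6 of the 8 probes, from 4 genes, were called higher, beside 21.4% of all probes. The log2 difference between progenitors and LSK cells was 89.8% of that between Ter119+ and LSK cells at the lead Aqp1 probe, and 79.2% and 72.6% at the other 2. It was 61.4% for Kel, 42.6% for Ank1, 14.4% and 8.82% at the 2 Dmtn probes and -10.9% for Slc4a1. The lead probes kept this order over the alternative settings: the share stayed between 87.5% and 92.1% for Aqp1, 48.4% and 64.0% for Kel, 29.5% and 46.7% for Ank1, 7.47% and 17.1% for Dmtn, and -15.6% and -5.94% for Slc4a1. With LSK arrays raised to their lowest detected level in groups without a detected array, the shares of Kel and Ank1 became 58.4% and 35.5%. Those of the 2 Dmtn probes became 5.33% and -5.35%, so the sign of the second turned. These shares describe each gene's own change, and differences between genes in them were not tested. In Gr1+ cells against progenitors 6 of the 8 probes were called lower, beside 37.8% of all probes: those of Aqp1 (-5.56 ± 0.24, -5.03 ± 0.21 and at least 13.5-fold), Kel (at least 12.9-fold), Ank1 (at least 2.88-fold) and the lead Dmtn probe (at least 1.48-fold, adjusted p = 0.000809, with overlapping arrays). The Dmtn call was lost with the authors' series matrix values (-0.31, adjusted p = 0.0534, limma).

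**Figure D4:**
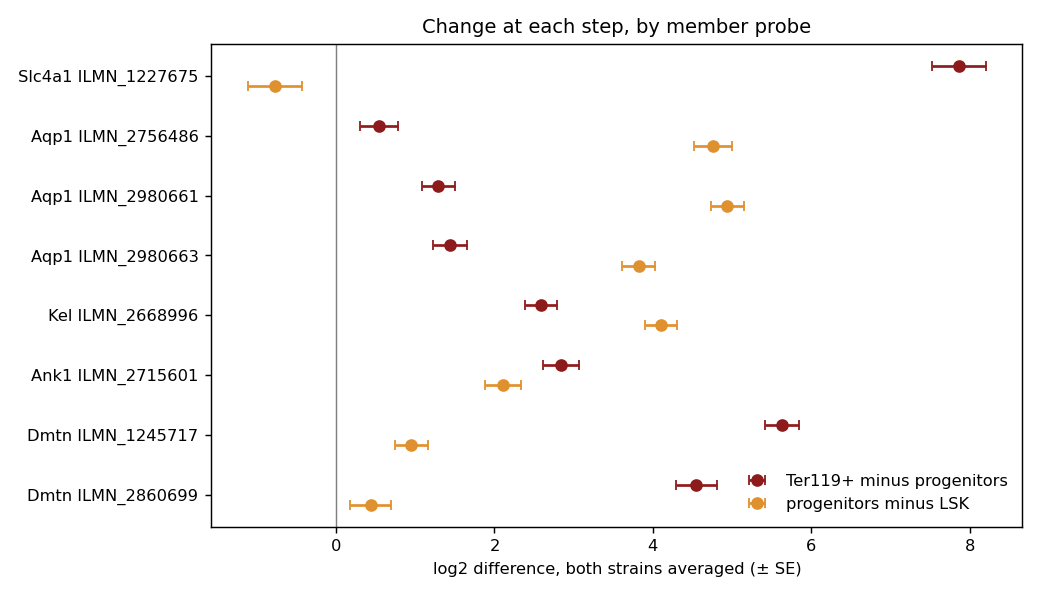
Log2 difference with its SE (horizontal axis) at each of the 8 detected probes (vertical axis) between Ter119+ cells and progenitors and between progenitors and LSK cells, averaged over both strains. Slc4a1 and Dmtn differ mainly between Ter119+ cells and progenitors (7.86, 5.63 and 4.55), and Aqp1 mainly between progenitors and LSK cells (4.76, 4.94 and 3.82).

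Profiles were also compared over the 8 group means, each centred on its own mean, by the root mean square of their log2 differences, as a description over points that share arrays. Among the 5 genes the nearest pair was Aqp1 and Kel (0.81) and the farthest Slc4a1 and Aqp1 (3.03), with Dmtn the nearest to Slc4a1 (1.07). Among the 7920 other genes the nearest to Slc4a1 were Alas2 (0.33), Apol11b (0.61) and Fcmr (0.71). Those nearest to Aqp1 were Slc38a5 (0.38), Klf1 (0.49) and Abcb4 (0.53). Kel was nearest to Sptb (0.31), Tspan33 (0.65) and Slc38a5 (0.73). The spectrin gene Sptb was closer to Kel than any of the other 4 detected genes was, but it was picked as the nearest of 7920 genes. The Kel profile also lay near the detection limit in LSK and Gr1+ cells. Ank1 was nearest to Tfrc (0.32), Tspan33 (0.34) and Hemgn (0.34), and Dmtn to Apol11b (0.59), Trim10 (0.60) and 1300017J02Rik (0.63).

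A list of 40 other genes of the red cell membrane and skeleton set these genes in context, of which 37 had a probe and 30 were detected well enough to test. In Ter119+ cells against progenitors 18 of the 30 were called higher and 2 lower, beside 24.4% and 30.2% of all probes. The median was 0.97 beside -0.08 over all probes. The largest increases were in Ackr1, the Duffy chemokine-binding receptor gene (at least 21.8-fold), Tmod1, which encodes the tropomodulin that caps the short actin filaments (at least 5.95-fold), and Sptb, which encodes beta-spectrin (3.22 ± 0.19, 9.32-fold, adjusted p = 3.08e-12, limma). Ackr1 and Tmod1 passed the detection filter through Ter119+ cells alone, so the filter largely fixed their direction. The 2 lower genes were Flot1, a lipid raft scaffold gene (-0.71 ± 0.11, adjusted p = 1.7e-05), and Xk, whose product binds Kell in the human red cell (-0.35 ± 0.15, 1.27-fold, adjusted p = 0.0499, with overlapping arrays). Flot2, with -0.30 ± 0.17, was not called (adjusted p = 0.128). Between progenitors and LSK cells 14 of the 30 were higher and 4 lower, beside 21.4% and 18.4% of all probes (median 0.38, beside 0.04 over all probes). Sptb was among the higher ones, at least 11.5-fold, so that it was called in both steps, as Kel was. In Gr1+ cells against progenitors 10 were higher and 15 lower, beside 29.1% and 37.8% of all probes (median -0.61, beside -0.11 over all probes).

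A second list of 16 relatives of these genes that serve mainly other cell types had 14 genes on the array, of which 7 were tested. In progenitors against LSK cells limma called none of the 7 higher, also at an unadjusted p under 0.05, and 6 lower, beside 18.4% of all probes called lower (median -0.94, against 0.04 over all probes). Among the lower ones were Epb41l3, a protein 4.1 relative (-3.53 ± 0.19), and Tgm2, a transglutaminase gene related to Epb42 (-2.23 ± 0.17). In Ter119+ cells against progenitors limma called 4 higher, beside 24.4% of all probes, and none lower, also at an unadjusted p under 0.05 (30.2% of all probes were called lower). The median was 0.65 beside -0.08 over all probes. In Ter119+ cells against LSK cells 1 was called higher and 4 lower, beside 26.2% and 27.8% of all probes, with a median of -0.77 beside -0.02. The anion exchanger gene Slc4a2, a relative of Slc4a1, was among those called higher in Ter119+ cells over progenitors, with 0.65 ± 0.15, or 1.57-fold (adjusted p = 0.000599, limma).

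Between the strains, 2 of the 8 probes were called lower in D2 than in B6 Ter119+ cells by limma and none higher, also at an unadjusted p under 0.05, beside 8.23% of all probes called lower and 7.15% called higher. The called probes were Ank1 ILMN_2715601 and Aqp1 ILMN_2980663. Ank1 averaged 8.89 ± 0.73 in D2 and 9.86 ± 0.56 in B6 Ter119+ cells (SD, n = 3 each). The difference was -0.97 ± 0.32, or 1.96-fold lower in D2 (adjusted p = 0.0447, limma), and the arrays overlapped, since D2 replicate 1 at 9.71 lay above B6 replicate 1 at 9.32. The SE is shared with the LSK and Gr1+ groups, where Ank1 was undetected and the SD was 0.06 to 0.28. It is thus narrower than the Ter119+ arrays alone would give, and the call was lost when only the groups compared were fitted. This call was lost in 21 of 37 alternative settings, over which the adjusted p ran from 7.72e-05 to 0.253. Without B6 replicate 2, the highest array after normalization, the difference was -0.69 (adjusted p = 0.253, limma). In raw intensity, which is not scaled between arrays, B6 replicate 2 was the lowest B6 array at 839.6. The raw ranges did not overlap, at 355.5 to 653 in D2 and 839.6 to 1621 in B6, so the overlap of the arrays depends on the normalization.

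Aqp1 ILMN_2980663 averaged 9.59 ± 0.69 in D2 and 10.54 ± 0.65 in B6 Ter119+ cells, a difference of -0.95 ± 0.30 (1.93-fold lower in D2, adjusted p = 0.0350, limma) with overlapping arrays. Its raw intensities, not scaled between arrays, did not overlap (582.6 to 998.7 in D2, 1323.4 to 2775.1 in B6). Its SE too is shared with groups of smaller spread (SD 0.04 to 0.43), and is narrower than the Ter119+ arrays alone would give. The call was lost in 9 of 36 alternatives, among them the fit of just the groups compared. The adjusted p (limma) ran from 6.58e-05 to 0.218, the highest without B6 replicate 2 (-0.67). The other Aqp1 probes did not share the call: ILMN_2980661 differed by -0.80 ± 0.30 (adjusted p = 0.0762) and the lead probe by -0.13 ± 0.33 (adjusted p = 0.854). No strain difference in Aqp1 is therefore shared by its 3 probes. Probes were not checked for sequence variants between the strains, and what variants contribute was not tested.

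The remaining probes were not called. Dmtn ILMN_2860699 differed by -1.08 ± 0.37 (adjusted p = 0.0503, limma). Its Ter119+ arrays had an SD of 0.67 in D2 and 1.2 in B6, against 0.05 to 0.29 in the other groups that share the SE. The difference passed the threshold in 8 of 36 alternatives and was -0.44 without B6 Ter119+ replicate 2. The lead Dmtn probe differed by -0.30 ± 0.30 (adjusted p = 0.562), and Kel by -0.49 ± 0.28 (adjusted p = 0.265). Slc4a1 differed by 0.20 ± 0.48 (adjusted p = 0.850, limma). That SE comes mostly from the other cell types (SD 0.25 to 0.95) and not from the Ter119+ arrays (SD 0.06 in D2 and 0.05 in B6). The D2 Ter119+ arrays of Slc4a1 all lay above its B6 arrays, but their raw intensities, 32804.6 to 36746.1 in D2 and 32781.8 to 33710.7 in B6, overlapped. Of the 8 differences 7 were negative, with a median of -0.64 beside -0.01 over all probes. D2 replicate 1 was the highest D2 Ter119+ array at all 8 probes, and B6 replicate 1 was the lowest B6 array at 6 of them. By mean level the erythroid marker list moved with these arrays: it was 10.82 on D2 replicate 1 and 10.10 and 10.11 on the other D2 arrays, against 10.27 on B6 replicate 1 and 10.88 and 10.67 on the other B6 arrays. Of its measured genes Hba-a1 alone went the other way (14.62, 14.85 and 14.85 in D2, 14.44, 14.38 and 14.33 in B6). The summed intensity of the list was 39931, 39662 and 39251 in D2 and 31981, 35246 and 32763 in B6. It was higher in D2, but it is weighted to Hba-a1, the probe of highest intensity. By strain mean Hba-a1, Alas2 and Klf1 were higher in D2 Ter119+ cells, and Gata1, Tfrc, Epor and Car2 were lower, with none called. What the erythroid content of the arrays contributes to the strain differences was not tested.

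**Figure D5:**
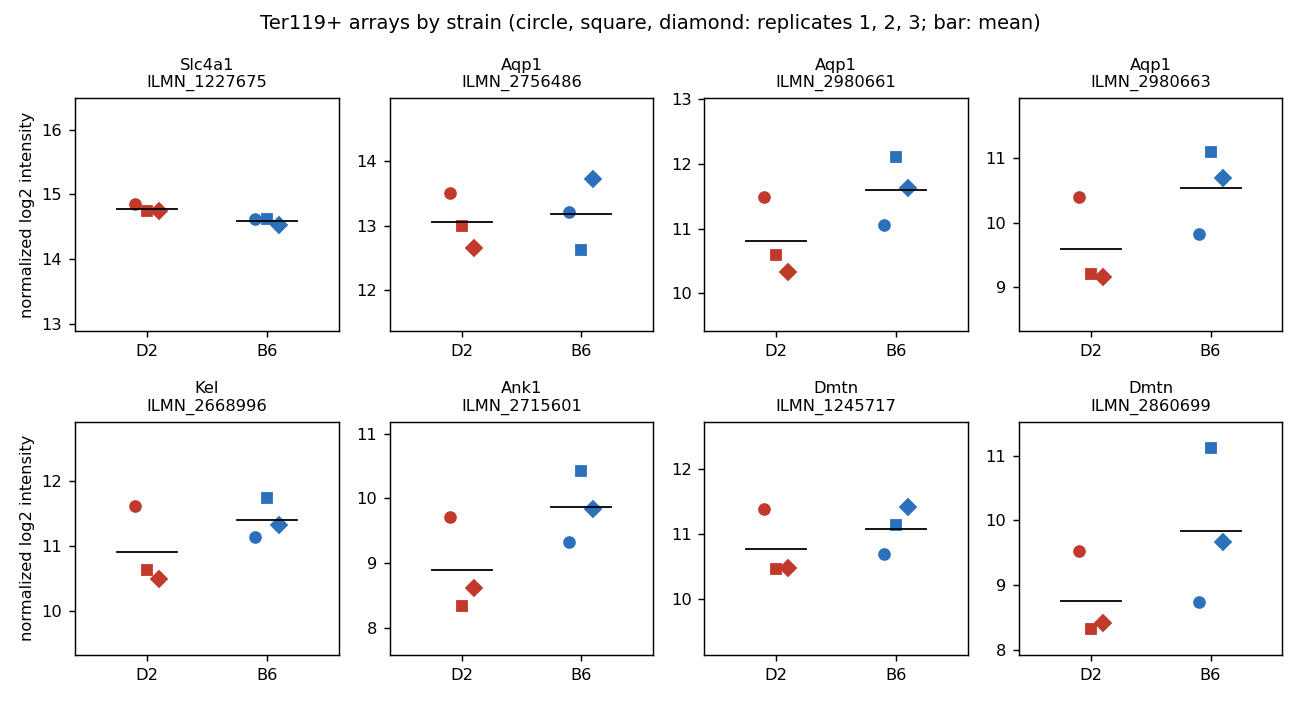
Normalized log2 intensity (vertical axis, the same span in each panel) of the 8 detected probes on the D2 and B6 Ter119+ arrays, with 1 symbol per replicate and bars for means. D2 replicate 1 (circle) is the highest D2 array in every panel, and the strains overlap in all panels but that of Slc4a1.

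Among the 30 other membrane and skeleton genes 1 was called higher in D2 Ter119+ cells, the tropomyosin gene Tpm3 (0.92 ± 0.24, adjusted p = 0.00986, limma), and 7 were called lower. Of all probes 7.15% were called higher there and 8.23% lower. The largest decreases were in Art4, which carries the Dombrock blood group in humans (-1.51 ± 0.26, adjusted p = 0.000222), the nucleoside transporter gene Slc29a1 (-1.39 ± 0.36) and the beta-adducin gene Add2 (-1.24 ± 0.27). Their D2 and B6 arrays did not overlap. The other 4 were Ermap (-1.06 ± 0.30), Kcnn4 (-1.06 ± 0.30), Gypc (-1.04 ± 0.32) and Abcb6 (-0.93 ± 0.30), with overlapping arrays.

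In the other cell types limma called none of the 8 probes between the strains. In progenitors 5.33% of all probes were called in either direction, in Gr1+ cells 5.84% and in LSK cells 7.67%. At an unadjusted p under 0.05 the count was 1 in progenitors, the lead Dmtn probe (-0.71 ± 0.30, adjusted p = 0.246), and 0 in Gr1+ and in LSK cells. The Slc4a1 differences between D2 and B6 were -0.68 ± 0.48 in progenitors, -0.67 ± 0.48 in Gr1+ cells and -0.95 ± 0.48 in LSK cells, each within the spread of its arrays (adjusted p = 0.697, 0.729 and 0.283). Whether the step between progenitors and Ter119+ cells differed between D2 and B6 was tested directly, and limma called none of the 8 probes, beside 1.8% of all probes in either direction. At an unadjusted p under 0.05 there were 2, both of Aqp1: ILMN_2980661 (-0.90 ± 0.42, adjusted p = 0.419) and ILMN_2980663 (-1.19 ± 0.43, adjusted p = 0.216). Each of the 8 probes had its highest mean in Ter119+ cells in both strains, and the difference between progenitors and Ter119+ cells was called in both strains for every probe (beside 19.7% of all probes called higher in D2 and 17.5% in B6) other than the lead Aqp1 probe, for which it was 0.49 ± 0.33 in D2 and 0.59 ± 0.33 in B6.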

How the data were processed

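The deposited raw columns hold probe intensity as the authors exported it, neither background-subtracted nor normalized, from 67.9 to 46120, and the submitters' processing notes name GenomeStudio. The deposited detection column is a fraction that rises with intensity and was read, from its values, as 1 minus the detection p-value. The authors' deposited series matrix holds log2 values, used as an alternative. Against raw intensities put through log2 and quantile normalization they differed by a median of 0.000477 per value (at most 0.18). A further 24 per-array columns of detection calls were left aside. Intensities were corrected with limma 3.58.1 (normal-exponential model with offset 16, its negative controls estimated through the detection p), then quantile-normalized and log2-transformed in R 4.3.3. Of 45281 probes, 34903 were in the supplied annotation (34885 with 1 symbol, 18 with several), and 12668 were kept, those with 3 of 3 arrays of any group at a detection p under 0.01. The number of arrays, 3 a group, limits the precision.

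One linear model with 8 group means was fitted over all 24 arrays (16 residual degrees of freedom, prior 6.28), with two-sided moderated tests adjusted by Benjamini and Hochberg over the kept probes and strains averaged for cell type comparisons. The ± is the SE of a difference and the SD of a level. The script was tested on simulated data.

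All probes of the 7 genes were reported. From the list of other genes, the text names the 3 largest and 3 smallest differences between Ter119+ cells and progenitors, any against the list and any called between strains in Ter119+ cells, and for like patterns the 3 nearest genes. Genes named outside this rule (erythroid markers, Rhag, Slc4a2, Epb41l3, Tgm2) were chosen after their values were seen, or serve as markers. The genes and lists were chosen with earlier results of these data known. The alternatives left out background correction, scaled by the median or the 75th percentile, took the series matrix, set 3 other detection filters, took 1 probe a gene, blocked on replicate number, fitted just the groups compared, used robust trended variances or array weights, or dropped each array in turn. No batch or scan date is given. Figures used Python 3.11.15, numpy 2.4.6, pandas 2.3.3 and matplotlib 3.10.9.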

Additional observations from a re-analysis of the deposited data

How the results depend on the processing

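Of the settings tried for single probes, 2811 values kept their direction and side of the threshold, 44 newly passed it, 33 no longer did and none reversed. The number of probes called higher in Ter119+ cells than in progenitors was 7 as reported and 4 with 1 probe a gene, and 5 were called against LSK and 5 against Gr1+ cells with 1 probe a gene, where only 5 probes are tested. Where detection on every array compared was asked for, fewer probes were tested and 2 were called in Ter119+ cells against LSK cells, 2 in Ter119+ against Gr1+ cells, 1 in progenitors against LSK cells and 2 in Gr1+ cells against progenitors. The strain difference in Ter119+ cells was the least stable: 2 probes were called as reported, 1 with median scaling, 1 with 75th percentile scaling, 1 with detection p under 0.05, 1 with 1 probe a gene, 0 with no detection filter, 0 with only the groups compared and 6 with array weights. The probe called with either scaling was Dmtn ILMN_2860699, which was not called as reported, and both reported calls were lost there. Leaving out each array in turn gave 0 to 5, with 0 without B6 Ter119+ replicate 2 or 3 or without D2 Ter119+ replicate 2 or 3, 4 without B6 Ter119+ replicate 1 and 5 without D2 Ter119+ replicate 1. Leaving out together the least correlated array of each of the 3 groups with the lowest such value (D2 LSK replicate 2, D2 progenitor replicate 1 and B6 Ter119+ replicate 2), chosen after seeing the data, also gave 0. With the replicate block 1 probe was called, and Ank1 was not (adjusted p = 0.0539). Deviations of same-numbered arrays correlated at a median of 0.0771 (-0.38 to 0.366) against -0.0218 for other numbers, and 37 of 84 same-numbered pairs lay over 0.1 against 35 of 168 others. As not every same-numbered pair did, and no label ties the numbers, the arrays were not treated as paired. For the strain difference in the step between progenitors and Ter119+ cells the count was 0 as reported, 2 with array weights, and 0 to 1 leaving out each array, with 1 without B6 or without D2 Ter119+ replicate 1. Median scaling shifted all probes by a median of -0.41 between D2 and B6 Ter119+ cells (75th percentile scaling by -0.22), and Ank1 then differed by -1.42 without a call. The cause was not tested. Probes at the detection limit, in LSK and Gr1+ cells, give bounds only.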
